A study of Mus musculus with 3 samples.

Results

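The 4 adult globin genes Hba-a1, Hba-a2, Hbb-bs and Hbb-bt, together with Alas2 and Car2, were followed through single-cell libraries of mouse meninges, the membranes that wrap the brain. These 6 of the 27998 genes in the count table were chosen from their levels in these same libraries, in erythroid and other cells and in the free RNA around them. Their levels and their differences between libraries are therefore given as descriptions, and outcomes of fits over all genes are not read as evidence on the members. Each library pooled the meninges of 4 male C57BL/6J mice aged 10 to 12 weeks, perfused before dissection, and live nucleated singlets (DAPI- DRAQ5+) were sorted and captured by 10x 3' chemistry. HC replicate 1 and HC replicate 2 came from unstressed homecage (HC) mice, and CSD replicate 1 came from mice classed as stress-susceptible after 14 days of chronic social defeat (CSD), in which a mouse is exposed daily to an aggressor. Wherever 3 values stand together, they are in the order in which these libraries were just named. The comparison asks how the defeat changed meningeal cells, and it rests on 2 HC pools and 1 CSD pool, so that differences between mice within a pool cannot be seen.

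Haemoglobin is a tetramer of alpha and beta globin chains, each of which holds a haem group. Haem is built in a chain of enzymatic steps that starts with an aminolevulinate synthase, which is Alas2 in erythroid cells and Alas1 in other cells, and ends when ferrochelatase (Fech) inserts iron. Erythroblasts, the nucleated precursors of red cells, make globin and haem until the nucleus is lost, and they carry carbonic anhydrase 2 (Car2), which interconverts carbon dioxide and bicarbonate. Newly formed red cells, the reticulocytes, have no nucleus and still hold globin RNA.

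In the GRCm38 (mm10) annotation the alpha genes lay on 1 strand of chromosome 11, Hba-a1 at chr11:32283511-32284465 and Hba-a2 at chr11:32296489-32297298, both on the plus strand and 12023 bases apart. The beta genes lay on the minus strand of chromosome 7, Hbb-bs at chr7:103826534-103828096 and Hbb-bt at chr7:103812524-103813996, 12537 bases apart. Each globin gene had 3 exons. Alas2 covered chrX:150547375-150570638 with 11 exons, and Car2 covered chr3:14886273-14900770 with 7 exons, both on the plus strand. All 6 genes were annotated as protein coding.

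The promoters are shown because the globins and Alas2 had their highest levels in the same cells. RefSeq sequence of GRCm38.p6 was found for 5 of the 6 genes and was taken as the 250 bases before the RefSeq start of each gene, read 5' to 3' on the gene's strand. That start differs from the one in the annotation above, so the windows reach into the genes as annotated there. Capitals mark every match, on either strand, of AGATAA or TGATAA (words bound by GATA factors), CACCC (a word bound by Klf1), CCAAT and TATAA. The window of Hba-a1 was chr11:32283422-32283671, that of Hbb-bs was chr7:103827929-103828178, that of Hbb-bt was chr7:103813924-103814173, and that of Alas2 was chrX:150547167-150547416. The window of Hba-a2 shared an identical run of 247 of its 250 bases with that of Hba-a1 and is not repeated.
Hba-a1: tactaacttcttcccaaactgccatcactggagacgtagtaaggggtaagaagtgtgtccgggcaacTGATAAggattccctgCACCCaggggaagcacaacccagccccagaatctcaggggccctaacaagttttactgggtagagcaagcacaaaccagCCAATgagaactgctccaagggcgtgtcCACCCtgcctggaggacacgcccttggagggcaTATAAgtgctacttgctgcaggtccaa
Hbb-bs: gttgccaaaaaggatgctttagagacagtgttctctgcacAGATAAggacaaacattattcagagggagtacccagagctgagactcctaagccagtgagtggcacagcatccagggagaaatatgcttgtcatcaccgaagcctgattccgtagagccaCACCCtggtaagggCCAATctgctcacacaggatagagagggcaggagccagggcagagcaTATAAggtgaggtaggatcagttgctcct
Hbb-bt: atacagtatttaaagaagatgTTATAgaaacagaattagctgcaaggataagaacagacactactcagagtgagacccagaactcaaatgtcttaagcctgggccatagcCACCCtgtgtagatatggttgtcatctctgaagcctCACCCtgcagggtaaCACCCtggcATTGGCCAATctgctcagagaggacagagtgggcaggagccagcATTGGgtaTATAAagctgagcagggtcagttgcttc
Alas2: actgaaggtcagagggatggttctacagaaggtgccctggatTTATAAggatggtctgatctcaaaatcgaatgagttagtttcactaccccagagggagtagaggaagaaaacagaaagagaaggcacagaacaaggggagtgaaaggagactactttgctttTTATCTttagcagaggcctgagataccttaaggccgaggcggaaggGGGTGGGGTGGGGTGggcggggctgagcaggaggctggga
In each globin window TATAA lay 27 to 30 bases before the start, with CCAAT and CACCC further out. A GATA word was found in 4 of the 5 windows, the exception being Hbb-bt, and in 16.6% of all 32851 promoter windows of the same length. CACCC was found in 5 of 5 windows and in 52.0% of all windows, CCAAT in 4 of 5 and in 33.8%, and TATAA in 5 of 5 and in 22.8%. The 3 windows of Hba-a1, Hba-a2 and Hbb-bs held all 4 kinds of word, as did 0.721% of all windows. The alpha windows are nearly identical and yet enter each of these counts separately. Of 10 genes with level patterns like those of the members, named below, 6 had a GATA word, 7 CACCC, 6 CCAAT and 4 TATAA. Some of these genes had several windows. In Alas2, TTATAA gave overlapping TATAA matches on both strands, and CACCC was matched only as GGGTG. A match of letters is a description and does not show that a factor was bound.

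The sequences also limit how far paralogs can be told apart. The spliced transcripts of Hba-a1 (699 bases) and Hba-a2 (554 bases) shared an identical run of 415 bases, and 359 of 610 windows of 90 bases in Hba-a1 were found in Hba-a2. Hbb-bs (628 bases) and Hbb-bt (703 bases) shared a run of 430 bases. In the last 300 bases, where 3' libraries are read, 121 of 211 windows of Hba-a1 were found in Hba-a2, against 52 of 211 windows of Hbb-bs in Hbb-bt. A read that fits both genes of a pair cannot be assigned, so the split of alpha UMIs between Hba-a1 and Hba-a2 is uncertain, and globin sums are too low by any such reads that the counting dropped.

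The libraries held 9891861, 8814690 and 10206236 unique molecular identifiers (UMIs). A UMI counts 1 captured molecule near its 3' end, so levels were not divided by transcript length. They are given in CPM, a gene's share of the UMIs on a scale where 51.1% of UMIs, the globins of erythroid-like cells in HC replicate 1, stands at 511185. HC replicate 2 stood apart in its free RNA, here the UMIs in barcodes of at most 100 UMIs, which made up 24.1% of its UMIs against 7.87% in the other HC library and 5.48% in the CSD library. After doublets were removed, 2552, 1677 and 2615 cells were kept, in 16 named cell types and 2 unnamed clusters. The libraries shared at most 8 barcode sequences in any pair, at most 1 of them erythroid-like. Doublet removal took 47, 25 and 141 barcodes, the last number set by a fixed share of scores because the automatic threshold marked only 0.145% of the CSD barcodes.

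The erythroid label was checked on markers other than the members. The erythroid-like cluster held 59 cells, and all 11 erythroid markers found in the files, among them Slc4a1 (the anion exchanger band 3) and Klf1, were present in it in each library. The members were not used to form the clusters. There were 10 erythroid-like cells in HC replicate 1, which is 0.392% of its cells (exact 95% interval 0.188 to 0.719%). HC replicate 2 had 11, or 0.656% (0.328 to 1.17%), and CSD replicate 1 had 38, or 1.45% (1.03 to 1.99%). The intervals of HC replicate 1 and CSD replicate 1 did not overlap, those of HC replicate 2 and CSD replicate 1 did, and all of them cover counting error only, as do the intervals below.

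Globin UMIs made up most of the RNA of erythroid-like cells and a small part of every other cell type. Summed over erythroid-like cells, the 4 globins took 51.1%, 56.9% and 57.5% of UMIs. In all other cells together they took 1874, 3409 and 5118 CPM. In free RNA they took 5216, 14398 and 28433 CPM. In each of these places HC replicate 1 was the lowest and CSD replicate 1 the highest. The 3 libraries lay closer together in erythroid-like cells than in the other places.

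**Figure D1:**
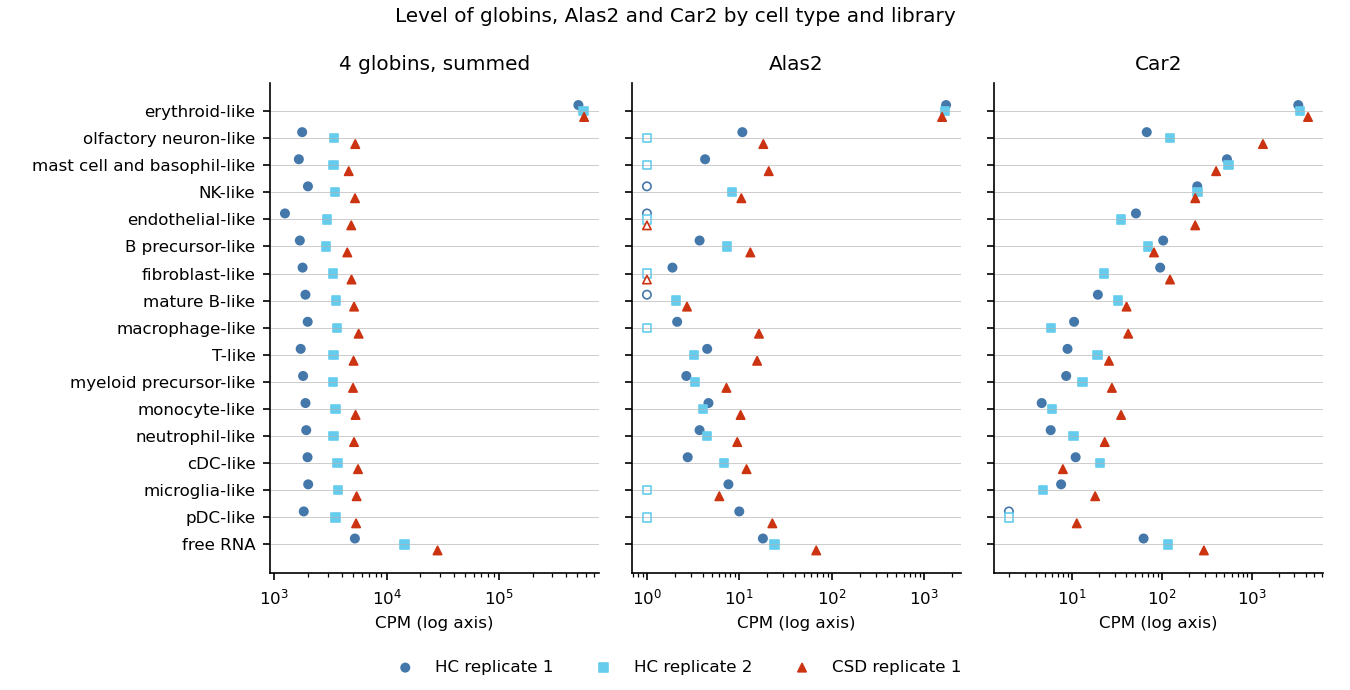
Levels in CPM (log axes) of the 4 globins summed, Alas2 and Car2 in each cell type and in free RNA, 1 point for each library. Open points are at 0 UMIs and are drawn at the left edge of the axis. The summed globins of the 15 other named types lie between 1243 and 5636 CPM, and those of erythroid-like cells lie between 511185 and 574654 CPM.

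Among the globins of erythroid-like cells, Hbb-bs, an adult beta gene, was the highest with 218707, 240527 and 252819 CPM. Hba-a1 followed with 135531, 156053 and 150023 CPM. Hba-a2 had 92060, 100358 and 96294 CPM. Hbb-bt was the lowest globin with 64887, 72277 and 75517 CPM. This order, Hbb-bs, Hba-a1, Hba-a2, Hbb-bt, was the same in the 3 libraries, and the ranges of the 4 genes over libraries did not overlap.

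Alas2, which makes the first intermediate of haem, had 1726 CPM (143 UMIs, exact Poisson interval 1455 to 2034), 1672 CPM (122 UMIs, 1388 to 1996) and 1563 CPM (476 UMIs, 1426 to 1710). Its 3 intervals overlapped. Car2 had 3308 CPM (274 UMIs, 2928 to 3723), 3454 CPM (252 UMIs, 3040 to 3907) and 4249 CPM (1294 UMIs, 4020 to 4487). Car2 in CSD replicate 1 lay above the intervals of both HC libraries. A UMI of Alas2 was found in 57 of the 59 cells, with a median of 13 UMIs and a highest value of 33, and a UMI of Car2 in 58, with a median of 29 and a highest value of 78.

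The proportions among the members were close in the 3 libraries. The beta genes held 55.5%, 55.0% and 57.1% of globin UMIs in erythroid-like cells. Hbb-bt held 22.9%, 23.1% and 23.0% of the beta UMIs. Hba-a1 held 59.6%, 60.9% and 60.9% of the alpha UMIs, within the limit on that split given above. Per 1000 globin UMIs there were 3.38, 2.94 and 2.72 UMIs of Alas2 and 6.47, 6.07 and 7.39 of Car2.

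Single erythroid-like cells differed widely in globin content. In HC replicate 1 the globin share of a cell's UMIs had a lowest value of 24.7%, a median of 61.3% and a highest value of 65.4%. In HC replicate 2 these values were 1.90%, 55.8% and 66.5%, the lowest in a cell of 526 UMIs with 10 globin UMIs. That cell had 0 UMIs of Alas2 and of Car2. It was not among the erythroid-like cells when clustering had no batch correction, which left 10 such cells, or 0.596%, in that library. In CSD replicate 1 the lowest, median and highest shares were 20% (120 of 600 UMIs), 60.5% and 70.8%. The cells of the 3 libraries covered overlapping ranges.

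At a finer resolution, again without the members, the 59 cells fell into 2 clusters, and these differed in globin, Alas2, Alad and Cpox in each library. Cluster 34 (4, 5 and 15 cells) had Rhd, Ctse, Hemgn, Slc4a1 and Klf1 among its leading genes, and cluster 32 (6, 6 and 23 cells) had Trim10 and Bpgm, which makes the regulator of haemoglobin's oxygen affinity. Summed over cells, globins took 32.9%, 48.9% and 45.4% of UMIs in cluster 34 and 63.1%, 63.1% and 65.8% in cluster 32. The globin shares of single cells overlapped, from 24.7% to 62.4% in cluster 34 and from 1.90% to 70.8% in cluster 32. Because globins fill so much of the library, the other genes are given as CPM of the UMIs that are not of the 4 globins (non-globin CPM).

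On that scale Alas2 had 1767, 2275 and 2012 in cluster 34 and 5647, 5603 and 5517 in cluster 32, with no overlap between the clusters. Fech, the last enzyme of haem synthesis, had 977, 791 and 1139 in cluster 32 against 362, 738 and 426 in cluster 34, from 18, 12 and 70 UMIs against 8, 12 and 29, so that HC replicate 2 showed no difference in counts. Alad, the second enzyme, went the other way with 1721, 1476 and 1424 in cluster 34 and 0, 132 and 163 in cluster 32. Cpox, which acts later in the pathway, had 408, 799 and 793 in cluster 34 and 0, 330 and 277 in cluster 32, from 9, 13 and 54 UMIs against 0, 5 and 17. Alas2 was thus higher, and Alad and Cpox lower, in the cluster with more globin in its summed UMIs, in each library.

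The direction of Car2 depended on the scale. In non-globin CPM it had 8834, 7563 and 8826 in cluster 34 and 4289, 8503 and 11277 in cluster 32, lower in cluster 32 in HC replicate 1 and higher there in the other libraries. In CPM of all UMIs it had 5928, 3867 and 4818 in cluster 34 and 1582, 3134 and 3854 in cluster 32, lower in cluster 32 in each library. Of 17 red cell cytosol and maturation genes with at least 20 UMIs, 11 were higher in cluster 32 and 5 in cluster 34 in all 3 libraries in non-globin CPM, and of 14 red cell membrane genes 2 and 9 were. All these genes except the members could shape the clusters, so these values describe the clusters and test nothing.

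Over the 56 erythroid-like cells with at least 1000 UMIs, Alas2 per other UMI was higher in cells with a higher globin share, with a Spearman rho of 0.80 (0.66, 0.84 and 0.80 within the 10, 10 and 36 cells of the libraries). The share of Hba-a1 among alpha UMIs, whose split is uncertain, was lower in such cells, with rho of -0.81 (-0.81, -0.84 and -0.84), and ran from 54.1% to 76.3% with a median of 60.1%. Car2 per other UMI gave 0.22 and differed in sign between libraries (-0.60, 0.20 and 0.26). The share of Hbb-bt among beta UMIs gave -0.37. The points share libraries and depth, and globin UMIs enter both axes of the relations on globin shares. UMIs of other genes divide the Alas2 and Car2 values and also lower the globin share. A positive rho can therefore arise from that shared term alone, and its part was not tested.

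**Figure D2:**
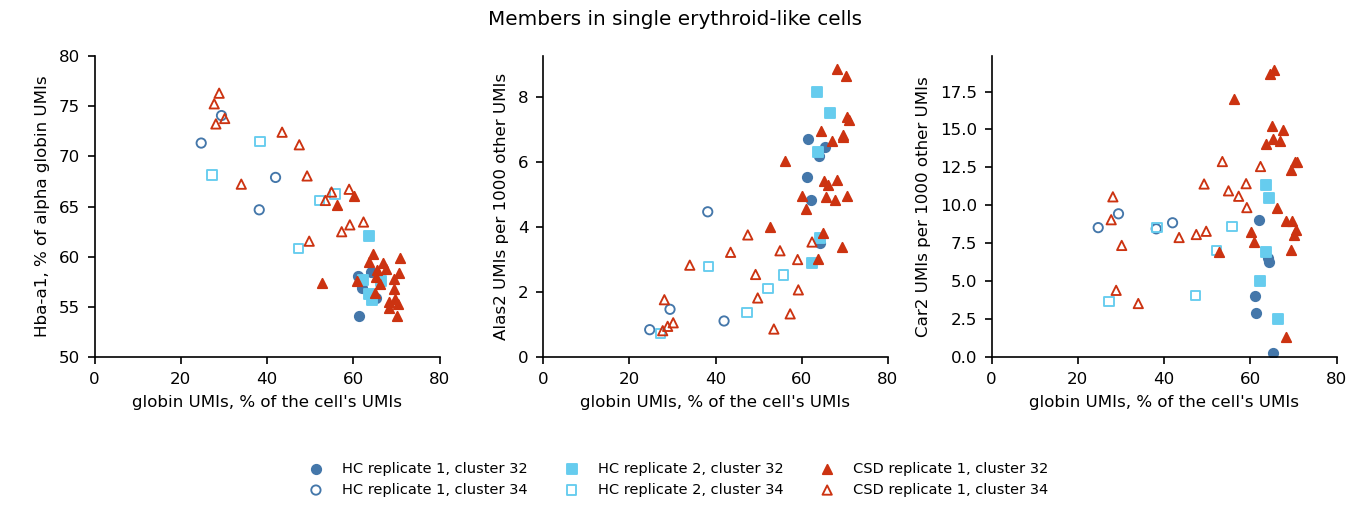
Single erythroid-like cells with at least 1000 UMIs (56 cells), coloured by library, filled for cluster 32 and open for cluster 34. The x axes give globin UMIs as % of the cell's UMIs and the y axes give Hba-a1 as % of alpha globin UMIs and Alas2 and Car2 UMIs per 1000 UMIs of other genes. The Hba-a1 share lies between 54.1% and 76.3% and is lower in cells with more globin, with the 3 libraries on the same band.

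The rest of the haem pathway followed the same cell type. Of the 8 other haem synthesis enzymes, 7 were higher in erythroid-like cells than in other cells in all 3 libraries, in non-globin CPM. Alad had 938, 827 and 826 in erythroid-like cells against 21.5, 23.8 and 18.7 in other cells. Fech had 642, 764 and 764 against 10.6, 14.3 and 7.23. The exception was Alas1, the synthase of other tissues, with 2 UMIs in all erythroid-like cells against 25.2, 21.8 and 26.1 non-globin CPM in other cells.

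Of the other lists, 6 of 8 mitochondrial haem and iron transport genes, 10 of 12 erythroid regulators and receptors, 14 of 14 red cell membrane genes and 17 of 18 red cell cytosol genes were higher in erythroid-like cells in each library. Of 7 haem breakdown and export genes 2 were. Of 9 other globin genes 2 were, and the theta globin Hbq1b, in the alpha cluster, was the most abundant of these with 48 UMIs. The embryonic genes Hba-x and Hbb-y had 0 UMIs in erythroid-like cells, where 3 UMIs in all would have been 36.2, 41.1 and 9.85 CPM in the 3 libraries.

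The genes whose pattern was most like the globins were named by the Pearson correlation of log2(CPM + 10) over 48 points, 16 cell types in 3 libraries, among 11075 genes. For the summed globins these were Trim10 (0.95), Rhd (0.95), Cldn13 (0.94), Sox6 (0.94) and Slfn14 (0.93). For Alas2 they were Trim10 (0.96), Cldn13 (0.95), Sox6 (0.94), Hbq1b (0.94) and Rhd (0.93). For Car2 they were Klf1 (0.81), Pdzk1ip1 (0.78), Tspo2 (0.77), Alad (0.77) and Hemgn (0.75), with lower values throughout. The points share libraries, and 3 of the 48 are erythroid-like sums that lie far from the rest, so the values mostly order genes by how they behaved in those 3.

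Globin UMIs reached nearly every cell. In cells other than erythroid-like ones, 95.4%, 98.4% and 99.8% of the cells had at least 1 globin UMI. Thinned to 500 UMIs a cell, 59.5%, 80.6% and 92.2% did. The median globin share of a cell was 0.183%, 0.337% and 0.511%, and no such cell passed 5%. The highest values were 0.843% in a neutrophil-like cell, 2.36% in a cell of an unnamed cluster and 1.95% in an NK-like cell.

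The named cell types of a library lay in a narrow range. Over the 15 other named types the summed globins ran from 1243 to 2001 CPM in the lowest library, HC replicate 1, from 2878 to 3688 CPM in the other HC library and from 4466 to 5636 CPM in the CSD library. The ranges of the 3 libraries did not overlap. The unnamed clusters, of 8 and 17 cells, lay above the range of the named types in both HC libraries, with 4218 and 5257 CPM in HC replicate 2 from 13 and 33 globin UMIs. Neutrophil-like cells had 1923, 3363 and 5126 CPM, and T- and NK-like cells, lineages without haemoglobin, had 1797, 3393 and 5127 CPM. The globin level thus differed between libraries and hardly between these lineages.

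Set against free RNA, globins in T- and NK-like cells stood at 34.4%, 23.6% and 18.03% of their free level. A list of 14 genes foreign to T- and NK-like cells stood at medians of 28.5%, 26.1% and 21.997% in the same cells. The defining erythroid markers were present in these cells at 17.4, 13.9 and 22.6 CPM summed over the list, with 5, 8 and 5 of the 11 markers at 0, against 33.4, 65.8 and 141 CPM in free RNA. For each 1000 globin UMIs there were 9.71, 4.10 and 4.41 marker UMIs in T- and NK-like cells, 6.40, 4.57 and 4.97 in free RNA and 4.06, 4.74 and 5.22 in erythroid-like cells. The 11 marker UMIs behind the value of 9.71 gave it an interval of 4.85 to 17.4, just above that of erythroid-like cells in that library (3.48 to 4.72), and the intervals of the 3 places overlapped in the other two libraries.

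**Figure D3:**
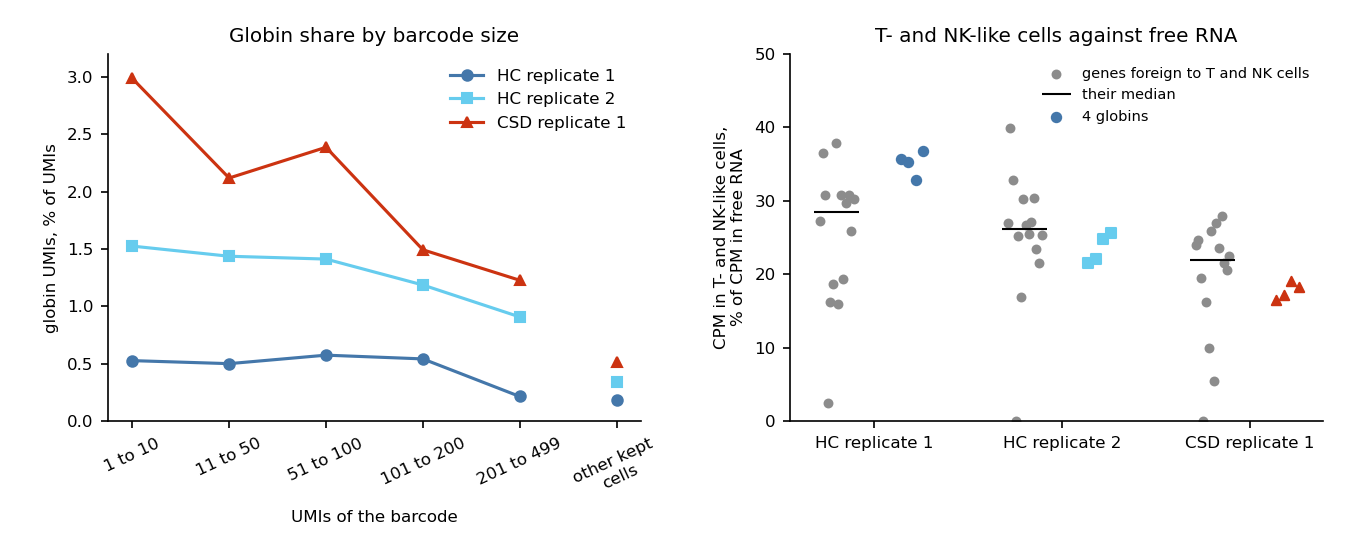
Left, globin UMIs as % of UMIs in barcodes grouped by their number of UMIs, and in kept cells other than erythroid-like ones, by library. Right, CPM in T- and NK-like cells as % of CPM in free RNA, for 14 genes foreign to these cells (grey, with their median) and for the 4 globins (coloured). The CSD library has the highest globin share in each group of barcodes, and the globins lie among the foreign genes in each library.

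Alas2 in other cells was near the limit of detection. All other cells together had 3.47, 3.36 and 10.1 CPM, against 17.99, 24.0 and 67.9 CPM in free RNA, where the counts were 14, 51 and 38 UMIs. Of the 15 other named types 3, 7 and 2 had no Alas2 UMI. In NK-like cells of HC replicate 1, for instance, 0 of 184829 UMIs were of Alas2, where 3 UMIs would have been 16.2 CPM. Thinned to 500 UMIs, 0.275%, 0.240% and 0.582% of other cells had an Alas2 UMI.

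Car2 behaved differently from the other members, since some cell types held it above free RNA. Mast cell and basophil-like cells had 533 CPM (443 to 634), 553 CPM (445 to 679) and 404 CPM (327 to 493). A few cells carried these levels, since the 5 highest held 96 of 125, 69 of 91 and 61 of 97 Car2 UMIs, and 14 of 32, 17 of 27 and 20 of 42 cells had any. NK-like cells had 249, 250 and 237 CPM, and the free level was 63.0, 117 and 295 CPM. Both HC libraries thus lay above free RNA in both types, while in the CSD library the counting intervals of both types overlapped that of free RNA. In microglia-like cells, by contrast, Car2 was at 7.62, 4.81 and 18.2 CPM, from 3, 1 and 3 UMIs.

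B precursor-like cells had 104, 69.9 and 82.2 CPM of Car2, and fibroblast-like cells 96.3, 22.7 and 124 CPM. In olfactory neuron-like cells Car2 was at 68.3, 123 and 1339 CPM (19, 24 and 442 UMIs). A single cell held 413 of the 442 CSD UMIs. That cell had 6998 UMIs, of which Car2 was 5.90%, second after Malat1, followed by Cartpt, a neuropeptide precursor, with 395 UMIs. Without it, an exclusion chosen after the values were seen, the CSD level was 89.7 CPM.

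The globin UMIs of a library lay in different places in the 3 libraries. Of 63467 globin UMIs in HC replicate 1, erythroid-like cells held 66.7%, other kept cells 25.6% and free RNA 6.40%. Of 105439 in HC replicate 2 they held 39.4%, 16.4% and 29.1%, with 14.7% in barcodes between free RNA and cells. Of 247746 in CSD replicate 1 they held 70.6%, 17.8% and 6.42%. All barcodes together, globins were 0.642%, 1.20% and 2.43% of UMIs.

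**Figure D4:**
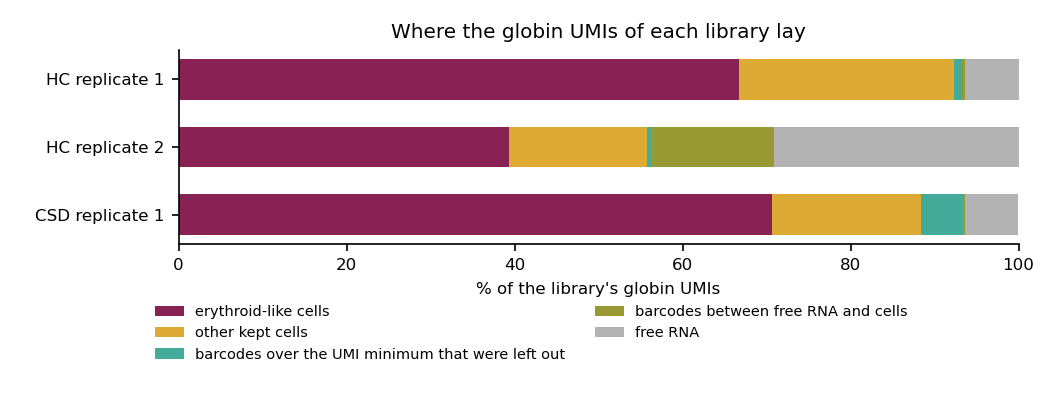
Where the globin UMIs of each library lay, as % of the library's globin UMIs, in erythroid-like cells, other kept cells, barcodes over the UMI minimum that were left out, barcodes between free RNA and cells, and free RNA. Erythroid-like cells hold 66.7% and 39.4% in the HC libraries and 70.6% in the CSD library.

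In erythroid-like cells the CSD library lay near the HC libraries for the globins and Alas2, and further above them for Car2. The ratio of CPM in CSD replicate 1 to the mean of the 2 HC libraries was 1.03 for Hba-a1, 1.00 for Hba-a2, 1.10 for Hbb-bs, 1.10 for Hbb-bt, 0.920 for Alas2 and 1.26 for Car2. The alpha genes of CSD replicate 1 lay between the HC libraries, the beta genes and Car2 above both and Alas2 below both. With 1 CSD pool, the spread among defeated mice is unknown.

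The whole-table fit in erythroid-like cells, by the quasi-likelihood test of edgeR after Benjamini-Hochberg adjustment, called 1 of 2373 genes, which is 0.0421%, and 0 of the 6 members. Since the members were chosen with these differences in view, nothing is read from that count. The gene called was Mgp, matrix Gla protein of vessels and connective tissue, at 26, 23 and 8 UMIs, with a log2 fold change of -3.43 (SE 0.75) and an adjusted p of 0.0118 by edgeR. Mgp belongs to the list of genes foreign to T- and NK-like cells. It was lower in the CSD library in other places too. Its log2 fold change in neutrophil-like cells was -3.32, at 652, 481 and 110 UMIs. In T- and NK-like cells it had 270, 362 and 31.3 CPM, and in free RNA 1686, 1353 and 572 CPM. The fitted log2 changes of the members were 0.15 and 0.11 for Hba-a1 and Hba-a2, 0.24 for both beta genes, -0.01 for Alas2 and 0.44 for Car2, with SE from 0.37 to 0.47, and the median over all genes was -0.02.

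The pathway genes did not pass the test in erythroid-like cells either. By edgeR, 0 of 7 haem synthesis enzymes tested, 0 of 5 transport genes, 0 of 9 regulators, 0 of 14 membrane genes, 0 of 17 cytosol genes and 0 of 3 breakdown genes were called. Their median log2 changes were 0.18, -0.00, 0.32, 0.45, 0.14 and -0.26. At an unadjusted p under 0.05 there were 62 genes of the 2373 and 0 in these lists, and DESeq2 called 0 genes.

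In neutrophil-like cells, T- and NK-like cells and free RNA, each globin was higher in CSD replicate 1 than in both HC libraries. In neutrophil-like cells Hbb-bt had 244, 440 and 734 CPM, and the summed globins had a CSD to HC ratio of 1.94. In T- and NK-like cells the ratio was 1.98. In free RNA it was 2.90 for the globins, 3.24 for Alas2 and 3.28 for Car2. The HC libraries themselves differed in the free globin level, with a mean of 9807 ± 6492 CPM (SD, n = 2), and CSD replicate 1 lay above the higher of them by more than that SD.

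Fitted as log2 changes by edgeR, Hba-a1, Hba-a2, Hbb-bs and Hbb-bt stood at 0.93, 0.95, 1.09 and 1.19 in neutrophil-like cells and at 1.64, 1.55, 1.62 and 1.81 in free RNA, where Alas2 stood at 1.75 and Car2 at 1.78. The size in free RNA depended on the HC library: the globins stood at 1.01 to 1.24 without HC replicate 1 and at 2.44 to 2.75 without HC replicate 2, Alas2 at 1.60 and 2.00 and Car2 at 1.43 and 2.33. The medians over all genes were -0.00 and -0.02. In neutrophil-like cells 5 of 1182 genes were called by edgeR (0.423%), of which 0 were among the 4 members tested. In free RNA 0 of 7430 were called (0%), 374 had an unadjusted p under 0.05, and DESeq2 called 0. Under other settings members were called, 2 of 4 in neutrophil-like cells by DESeq2 and, with no filter on low counts, 5 of 6 there and 6 of 6 in free RNA, and 3 of 6 in barcodes of at most 50 UMIs. Under these settings 14 of 1182, 271 of 14722, 72 of 15936 and 26 of 6099 genes were called in all, and nothing is read from the members' counts. The members moved together with the share of erythroid-like cells, 0.392%, 0.656% and 1.45%, whose part in these differences was not tested.

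The haem synthesis enzymes in free RNA had a median log2 change of 0.79 over 7 genes tested, 6 of them positive, and edgeR called 0. Alad was the highest of them at 1.54, and Fech was the lowest at -0.33, from 15, 50 and 9 UMIs. Transport genes had a median of 0.50 (4 genes), regulators 0.36 (4), membrane genes 0.39 (4) and cytosol genes 0.48 (13), and breakdown genes had -0.09 (6). Carbonic anhydrases had 1.78 (3, Car2 among them), with Car1 at 2.36 from 6, 13 and 18 UMIs. The members had a median of 1.69, which is a description of genes chosen with the values in view.

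**Figure D5:**
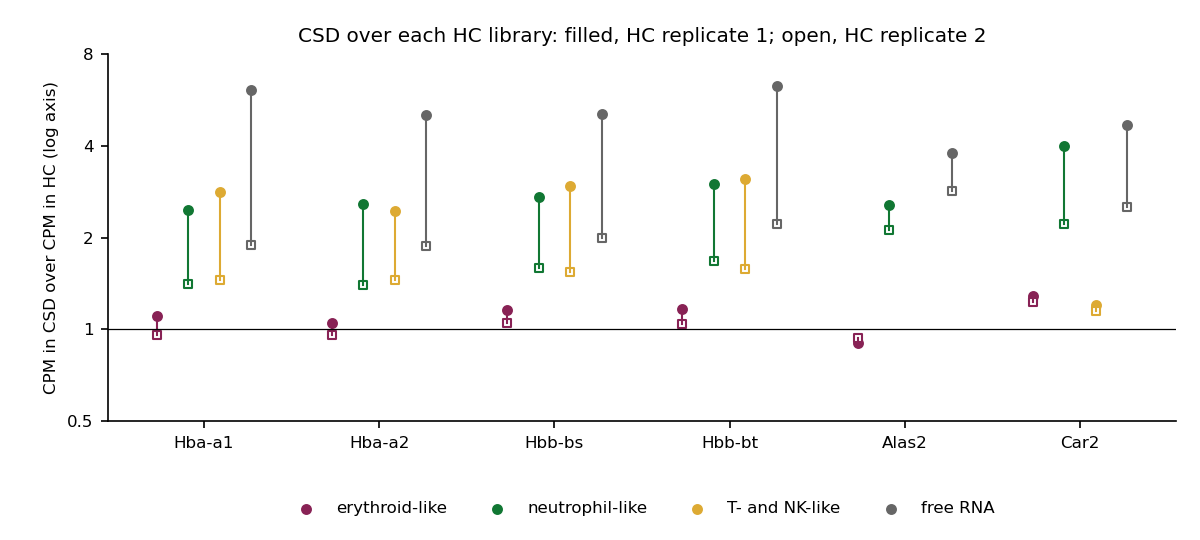
CPM in CSD replicate 1 over CPM in each HC library (log axis) for the 6 members in erythroid-like, neutrophil-like and T- and NK-like cells and in free RNA. Filled points use HC replicate 1 and open points HC replicate 2, and Alas2 in T- and NK-like cells is left out for its low counts. In erythroid-like cells the points lie near 1, those of Car2 the furthest above it. For the globins in the other places all points lie above 1.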

How the data were processed

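The study sequenced meningeal cells of 3 pooled libraries with 10x 3' chemistry. The deposited matrix holds UMI counts made by the authors with Cell Ranger 2 and mm10 (per the labels), for 27998 genes and every barcode, with no cell calling and no normalization. The library of a barcode was taken from its numeric ending, read as the lane in the labels. The sources used here do not state this map, and every CSD against HC value rests on it. In the matrix, 0 columns of values went unused. Total UMIs per library ran from 8814690 to 10206236.

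Cells had at least 500 UMIs, 174 to 4548 genes and under 8.3% mitochondrial UMIs. Doublets were removed by scanpy's Scrublet, by the automatic cutoff, replaced by the highest 5.1% of scores where it failed. Clusters came from 3000 variable genes without the members, 50 components, mutual nearest neighbour correction and Leiden at resolution 1 (scanpy 1.11.5, leidenalg 0.10.2), and were named from lists of markers. Cells were thinned to 500 UMIs to compare shares of cells with a UMI. UMIs were summed per library and type and tested with edgeR 4.0.16 (glmQLFit, glmQLFTest, TMM, two-sided) in R 4.3.3, on genes seen in over 15% of cells (in free RNA, at least 30 UMIs), calling genes at a Benjamini-Hochberg adjusted p under 0.05. The spread came from the 2 HC libraries, with the single CSD library taken to vary as they did. DESeq2 1.42.0 was an alternative, with others on filters, doublets, clustering and left-out libraries. The scripts were tested on simulated data. Intervals are exact 95% Clopper-Pearson or Poisson and cover counting error only.

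The members and the lists were chosen with earlier results of these data known. Named were the 6 members, each list gene past the threshold in the erythroid-like or free RNA fit (at most 6 a list), and the 5 genes most like the globins, Alas2 and Car2. Other genes named were examples from the lists, clusters or single cells, chosen after their values were seen. Some genes of the lists are not reported here by name.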

Additional observations from a re-analysis of the deposited data

Results flagged for a closer look

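In erythroid-like cells the CSD to HC ratio of Alas2 was 0.920, with the CSD library below both HC libraries, and in neutrophil-like cells it was 2.31, with the CSD library above both. The difference between the cell types was not tested. The neutrophil-like level rested on 7, 6 and 31 UMIs.

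The CSD to HC ratio of Car2 also differed in direction between cell types. It was 0.948 in NK-like cells and 0.744 in mast cell and basophil-like cells, below both HC libraries, and 14.0 in olfactory neuron-like cells, above both. The NK-like values rested on 46, 30 and 45 UMIs. In NK-like and in mast cell and basophil-like cells the counting interval of the CSD library overlapped those of both HC libraries. The difference was not tested, and the last ratio was 0.937 without the single cell that held most of the UMIs.

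Barcodes between free RNA and cells entered no fit. In the CSD library globins were 1.49% of UMIs in barcodes of over 100 and at most 200 UMIs, against 0.543% and 1.19% in HC replicate 1 and HC replicate 2. In barcodes of over 200 and under 500 UMIs they were 1.23% in CSD against 0.215% and 0.909%. Among the CSD doublets that were removed, 3 barcodes had at least 20% globin UMIs, a level otherwise reached by 10, 10 and 38 erythroid-like cells among barcodes of at least 500 UMIs.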

How the results depend on the processing

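The fitted log2 changes of the 4 globins stayed positive in neutrophil-like cells and free RNA under each alternative fitted (11 and 6). In erythroid-like cells they stayed positive under 12 and ran from 0.01 to 0.66. The highest came with no filter on low counts, which moved the median of all genes to 0.36. A mitochondrial limit of 5%, Leiden resolution 2 and members kept in clustering repeated the main fit in erythroid-like cells exactly. In CPM the alpha genes of CSD replicate 1 lay between the HC libraries in those cells. Since the members were chosen with these differences in view, nothing is read from these signs. Alas2 in erythroid-like cells ran from -0.09 to 0.40 and was positive in 5 of 12. The count of genes called in erythroid-like cells, 1, was 0 with DESeq2, with no filter and with doublets kept. In neutrophil-like cells the count of 5 (4 higher, 1 lower) became 14 with DESeq2 (7 higher, 7 lower), whose adjusted p was missing for 413 genes, 271 with no filter (140 higher, 131 lower), 1 with at least 1000 UMIs a cell and 1 with doublets kept. In free RNA the count of 0 became 72 with no filter (24 higher, 48 lower) and 26 in barcodes of at most 50 UMIs (9 higher, 17 lower). For these changes the cause was not tested.

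The CSD minus HC difference in globin share of free RNA, 1.86 percentage points, was 1.18 in barcodes of 11 to 100 UMIs. Leaving out an HC library gave 1.40 to 2.32 there, 0.544 to 6.35 in erythroid-like cells (3.45 with both), 0.176 to 0.320 in neutrophil-like cells (0.248 with both) and 0.797 to 1.06 for the share of erythroid-like cells (0.929 with both). In erythroid-like cells, HC replicate 1 left out gave 0.544 and HC replicate 2 left out gave 6.35. Car2 in olfactory neuron-like cells went from 14.0 to 0.937 without 1 cell. Leaving out an HC library left 1 against 1, with no test. No paired analysis was possible because the groups share only 1 replicate number. Counts of 10 and 11 erythroid-like cells limit the HC values.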
